A study of Salmo salar with 12 samples.

Results

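The miR-21 rows of the small RNA dataset were examined in adherent intestinal cells (AIC) and adherent head kidney cells (AKC) of Atlantic salmon, *Salmo salar*. A row was counted as a member when its name was ssa-miR-21, with or without 1 letter, followed by the 5p or the 3p arm. This rule found 4 of the 361 mature miRNAs listed, namely ssa-miR-21a-5p, ssa-miR-21a-3p, ssa-miR-21b-5p and ssa-miR-21b-3p. AIC were obtained from the distal intestine (6 libraries) and AKC from the head kidney (6 libraries) of post smolts kept in sea water. In both groups the isolated leukocytes adhered to a dish for 2 days at 12°C. The paper states that the groups were compared without stimuli. The study sampled 6 fish, and whether AIC and AKC of the same number come from the same fish is not given in the sources used here. AKC served as the reference cell type. The whole adherent pools were sequenced, so neither group is a pure macrophage population.

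A miRNA gene is transcribed as a hairpin, from which the 5p and the 3p strand are cut. One strand is usually loaded into an Argonaute protein and guides it to messenger RNAs, while the other is mostly degraded. In mammals miR-21 is transcribed in response to STAT3, AP-1 and NF-κB. There it represses, among others, *Pdcd4*, a translation inhibitor. In mammalian macrophages it accumulates after stimulation of Toll-like receptors and has been linked to the later, anti-inflammatory phase of the response. Salmonids carry additional gene copies from their own whole-genome duplication, and the letters a and b denote mature miRNAs that differ in a few bases.

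The libraries held 2253241 to 11804738 counts in AIC and 5791812 to 19586480 counts in AKC, and AKC replicate 1 was the largest library. Taking 3 counts as the smallest countable signal, the floor reached 0.000133% in the shallowest AIC library and 5.18e-05% in the shallowest AKC library, for counting error alone. The epithelial list (miR-192, miR-194, miR-200 and others) had 4 tested miRNAs, all called higher in AIC, against 17.1% of all 76 miRNAs tested. Each of the 4 had under 10 counts in most AKC libraries. They passed the filter on low counts through AIC only, so their direction was nearly fixed in advance and 17.1% is no fair comparison. Among untested rows, the 3p arms of miR-203a and miR-203b had 0 counts in AIC and 487 and 713 in AKC. ssa-miR-205a-5p had 399 in AIC and 907 in AKC, and the other untested rows with a count had more in AIC. Its 28 rows summed to 0.456% to 1.26% of the counts in AIC and 0.000114% to 0.0227% in AKC. The endocrine list, led by ssa-miR-375-3p, held 19.5% to 28.4% of the counts in AIC and 0.00613% to 0.0249% in AKC. The 2 rows for red blood cells, the arms of miR-144, had 0 counts in all 12 libraries. The lists for endothelium, and for stroma and muscle, held at most 0.0190% of any library. The blood leukocyte list (3 rows) held 0.147% to 1.57% in AIC and 1.06% to 2.87% in AKC, nearly all of it ssa-miR-150-5p. Its other rows, both 5p arms of miR-142, had no count in 10 of the 12 libraries. No row is listed for the 3p arm of miR-142, for miR-223 or for miR-451 of red blood cells, so their levels are not known here. In whole cell pools, fewer cells of a type and less RNA per cell cannot be told apart. The part of these cell type differences in the miR-21 values was not tested.

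Both 5p arms were detected in every library, and ssa-miR-21b-5p was the dominant member throughout. ssa-miR-21b-5p ranked 5 among all listed miRNAs in 5 AIC libraries and 8 in AIC replicate 4, and it ranked between 3 and 5 in AKC. ssa-miR-21a-5p ranked 25 to 37 in AIC and 8 to 15 in AKC. The miR-21 rows together took 1.75% ± 1.10 of the counts in AIC and 8.37% ± 8.04 in AKC (SD, n = 6 each). The difference of -6.63 percentage points was smaller than the SD of the AKC libraries, and the test of the group means passed the threshold (p = 0.00649 in a two-sided exact permutation test, and 0.0130 after Benjamini-Hochberg adjustment over 6 tests). Without AKC replicate 1, where the share was 24.1%, the difference between the group means was -3.48 percentage points (p = 0.0130, two-sided exact permutation test). A share also depends on the other miRNAs of its library. The median log2 fold change (AIC over AKC) over all miRNAs tested was -0.65 with total counts as library sizes. It was 0.090 after scaling by trimmed means of M-values (TMM, below). With TMM, ssa-miR-21b-5p, most of the sum, had a log2 fold change of -1.21 and was not called (edgeR, adjusted p = 0.113).

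ssa-miR-21a-5p, the less abundant 5p member, was lower in AIC than in AKC. Its share of the library counts was 0.0696%, 0.0883%, 0.0961%, 0.0401%, 0.0255% and 0.0837% in AIC replicates 1 to 6. In AKC replicates 1 to 6 the share was 1.70%, 0.761%, 0.486%, 0.342%, 0.547% and 0.421%. In shares the groups did not overlap, and even the highest AIC library lay well below the lowest AKC library. How many of all miRNAs were separated in this way in shares was not counted. With total counts as library sizes the median log2 fold change over all miRNAs tested was -0.65, so lower shares in AIC were common. The mean share was 0.0672% ± 0.0284 in AIC and 0.710% ± 0.507 in AKC (SD, n = 6 each). This gave p = 0.00216 in a two-sided exact permutation test, the smallest that 6 against 6 allow, and 0.00649 after adjustment over 6 tests.

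After scaling of the libraries by trimmed means of M-values (TMM), the normalized count of ssa-miR-21a-5p was 910 ± 388 CPM (counts per 1000000 scaled counts) in AIC and 5135 ± 3372 CPM in AKC (SD, n = 6 each). The log2 fold change was -2.50 (standard error 0.44, 95% confidence interval -3.44 to -1.55), which is 5.64-fold lower in AIC. Its adjusted p was 0.000498 (quasi-likelihood test of edgeR, Benjamini-Hochberg over 76 miRNAs). Calls required an adjusted p under 0.05 together with a change of 2-fold or more. Of the 76 miRNAs tested, 26.3% were called, 17.1% higher and 9.21% lower in AIC, and of the 2 members tested 1 was called. For 10.5% of the 76 the highest AIC value was under the lowest AKC value in normalized counts, and ssa-miR-21a-5p was the 1 such member. Among the 7 miRNAs called lower, the change of ssa-miR-21a-5p was exceeded by those of ssa-miR-19d-5p (-9.21) and ssa-miR-155-5p (-3.43). For ssa-miR-19d-5p, with a mean of 0.232 CPM in AIC, the fitted value depends on the prior count. ssa-miR-21a-5p was called under all 20 alternatives, with log2 fold changes from -3.74 to -2.41.

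**Figure D1:**
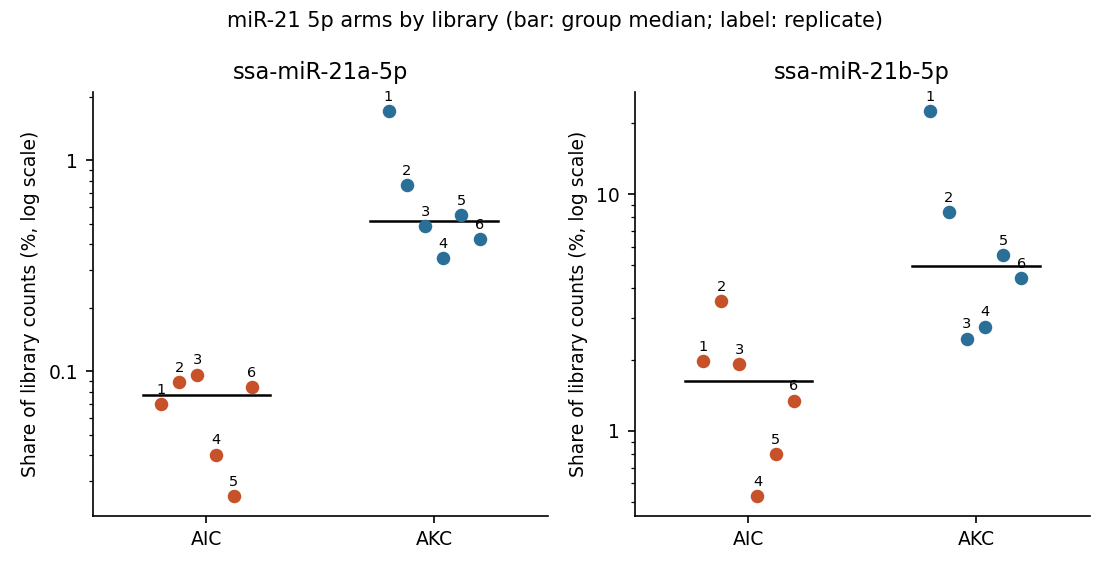
Share of all library counts taken by ssa-miR-21a-5p (left) and ssa-miR-21b-5p (right) in each AIC and AKC library, in percent on a log axis, with the replicate number at each point and the group median as a bar. The AIC points of ssa-miR-21a-5p all lie below the AKC points, whereas those of ssa-miR-21b-5p overlap at AIC replicate 2 (3.54%), and AKC replicate 1 is the highest point of both panels.

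For ssa-miR-21b-5p, the dominant 5p member, the difference pointed the same way but was smaller, and the groups overlapped. Its share was 1.97%, 3.54%, 1.91%, 0.529%, 0.797% and 1.34% in AIC replicates 1 to 6. In AKC replicates 1 to 6 it was 22.4%, 8.41%, 2.45%, 2.76%, 5.54% and 4.42%. AIC replicate 2 exceeded AKC replicates 3 and 4, and in 34 of the 36 pairs of an AIC with an AKC library the AIC value was the lower one. The mean share was 1.68% ± 1.08 in AIC and 7.66% ± 7.54 in AKC (SD, n = 6 each). The difference of -5.98 percentage points was smaller than the SD of the AKC libraries, and the test of the group means passed the threshold (p = 0.0108 in a two-sided exact permutation test, and 0.0162 after adjustment over 6 tests). Leaving out AKC replicate 1 brought the AKC mean to 4.72% ± 2.41 (SD, n = 5), and the difference was then -3.03 percentage points (p = 0.0216, two-sided exact permutation test).

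The normalized count of ssa-miR-21b-5p was 23675 ± 17520 CPM in AIC and 54750 ± 50942 CPM in AKC (SD, n = 6 each). In these counts the groups overlapped more widely than in the shares. AIC replicates 1 (37454 CPM) and 2 (52232 CPM) exceeded AKC replicates 3 to 6 (18652 to 34219 CPM). AIC replicate 3 (20306 CPM) also exceeded AKC replicate 3. The fitted log2 fold change was -1.21, with a standard error of 0.56 and a 95% confidence interval of -2.40 to -0.014, and was not past the threshold (edgeR, adjusted p = 0.113). The call depended on the setting. The paper, which used DESeq2 with the same thresholds, listed ssa-miR-21b-5p among the miRNAs downregulated in AIC. With the replicate number as a block, ssa-miR-21b-5p was called (-1.14, standard error 0.31, edgeR adjusted p = 0.0153), although pairing by fish is not stated. Among the fits without a replicate block, ssa-miR-21b-5p was called with total counts (-2.19), with library sizes taken from the mapped reads (-2.49), without a filter on low counts (-1.28), by DESeq2 (-1.27) and without AIC replicate 2 (-1.50), AIC replicate 6 (-1.53) or AKC replicate 3 (-1.41). Without AKC replicate 1 it was not called (-1.04, edgeR adjusted p = 0.0571, against a range of 0.00481 to 0.202 over all alternatives). With total counts and with the mapped reads the median log2 fold change over all miRNAs tested was -0.65 and -1.18, against 0.090 with TMM. Relative to that median ssa-miR-21b-5p stood at -1.54 with total counts, -1.31 with the mapped reads and -1.30 with TMM. ssa-miR-21a-5p stood at -2.76, -2.56 and -2.59 on the same scale.

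**Figure D2:**
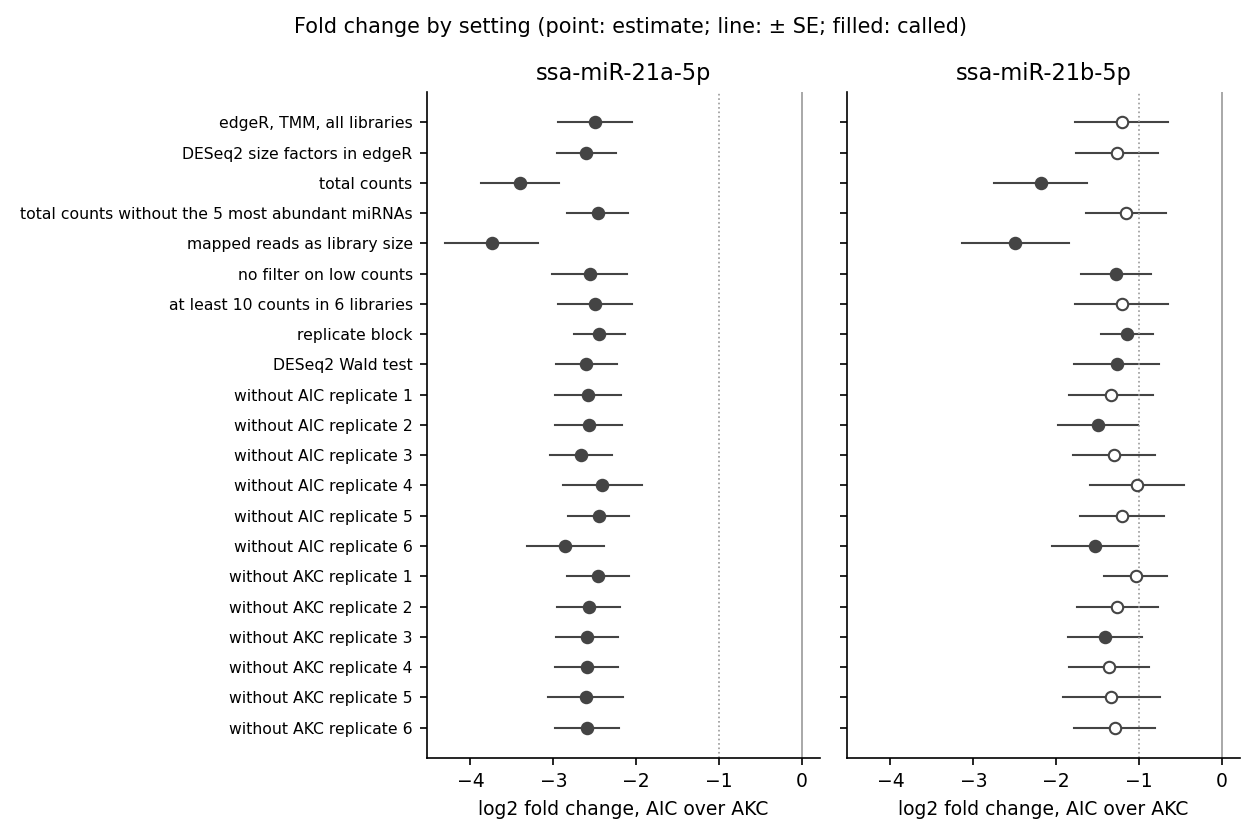
log2 fold change (AIC over AKC) of ssa-miR-21a-5p (left) and ssa-miR-21b-5p (right) in the fit to all libraries and under 20 alternatives, 1 setting per line; points are estimates, lines are ± 1 standard error, filled points were called, and the dotted line marks a log2 fold change of -1. ssa-miR-21a-5p is filled throughout at -3.74 to -2.41, and ssa-miR-21b-5p is open in the fit to all libraries (-1.21) and runs from -2.49 to -1.03.

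The members differed in the size of their change. A ratio of both members within a library does not depend on how libraries are scaled. ssa-miR-21a-5p made up 3.40%, 2.44%, 4.78%, 7.04%, 3.10% and 5.88% of the 5p counts of the pair in AIC replicates 1 to 6. In AKC replicates 1 to 6 it made up 7.07%, 8.30%, 16.5%, 11.0%, 8.99% and 8.70%. The groups did not overlap, although AIC replicate 4 (7.04%) and AKC replicate 1 (7.07%) nearly met. Expressed the other way, each count of ssa-miR-21a-5p was accompanied by 13.2 to 40.0 counts of ssa-miR-21b-5p in AIC and by 5.05 to 13.1 in AKC. The log2 ratio of ssa-miR-21a-5p to ssa-miR-21b-5p was -4.53 ± 0.61 in AIC and -3.21 ± 0.48 in AKC (SD, n = 6 each). The difference of -1.32 (95% interval from the inverted permutation test -2.01 to -0.61) exceeded the scatter of the libraries (two-sided exact permutation test, p = 0.00216, the smallest that 6 against 6 allow, and 0.00649 after adjustment over 6 tests). Leaving out any 1 library, the difference ran from -1.48 to -1.14. Reads of such similar sequences can be counted on the wrong member, and the part of this in the ratio was not tested.

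**Figure D3:**
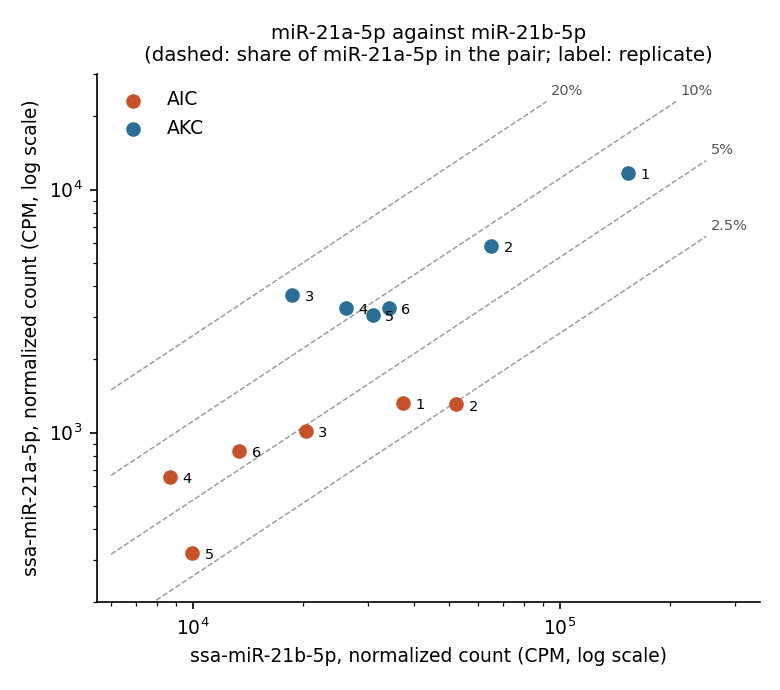
Normalized count of ssa-miR-21a-5p against that of ssa-miR-21b-5p (TMM-scaled CPM, both axes logarithmic) in the 6 AIC and 6 AKC libraries, labelled by replicate, with dashed lines where ssa-miR-21a-5p makes up 2.5%, 5%, 10% and 20% of the pair. ssa-miR-21a-5p takes 2.44% to 7.04% of the pair in AIC and 7.07% to 16.5% in AKC, and within each group both members are high or low in much the same libraries.

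The 3p arms were nearly absent. ssa-miR-21a-3p had 0 counts in all 12 libraries. For counting error alone, this allows a share of up to 9.06e-06% of the pooled AIC counts and 4.33e-06% of the pooled AKC counts. ssa-miR-21b-3p had 0 counts in the 6 AIC libraries, whereas it took 0.000725% of AKC replicate 1 and 0.00299% of AKC replicate 3 and had 0 counts in the other AKC libraries. Per 1000000 counts of ssa-miR-21b-5p this was 32.4 in AKC replicate 1 and 1220 in AKC replicate 3, while the floor of 3 counts lay at 13.9 to 142.7 in AIC. For counting error alone, the level of AKC replicate 3 lay above the floor of every AIC library, and that of AKC replicate 1 above only some. However, 0 counts also occurred in AKC replicates 2 and 6, where the floors were lower still (2.70 and 5.35). The 0 counts in AIC therefore do not show a lower level than in AKC. With a count in only 2 libraries, both AKC, a two-sided exact permutation test of the shares could not go below p = 0.455, the value obtained (0.463 after adjustment over 6 tests), so it could not show a difference. Among the 38 miRNAs with both arms listed and at least 1000 counts on the major arm, the minor arm held a median of 0.0595% of the pair. Its share was 0.00596% for miR-21b and 0% for miR-21a, and 16 of the 38 had no count of the minor arm.

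Libraries of one group differed more in ssa-miR-21b-5p than in most other abundant miRNAs. The SD of its log2 CPM was 1.05 in AIC and 1.10 in AKC, which ranked 2 and 1 among the 20 most abundant miRNAs, against medians of 0.61 in AIC and 0.57 in AKC. For ssa-miR-21a-5p the SD was 0.77 in AIC and 0.76 in AKC. The log2 ratio of the pair varied less, with SDs of 0.61 and 0.48. The members thus deviated together from their group means, with a Pearson r of 0.87 and a Spearman rho of 0.76 over 12 libraries. For ssa-miR-21a-5p, ssa-miR-21b-5p was the most similar of the 75 other tested miRNAs, and without AKC replicate 1 the r was 0.79. Points of one library share its RNA, depth and scaling factor, so these correlations are descriptions.

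The other miRNAs most like ssa-miR-21a-5p were ssa-miR-16a-5p (r = 0.79), ssa-miR-128-3p (0.73), ssa-let-7i-5p (0.71) and ssa-miR-155-5p (0.63). Without the libraries farthest from the median of ssa-miR-21a-5p, AIC replicate 5 and AKC replicate 1, the r was 0.14 for ssa-miR-16a-5p and 0.34 for ssa-let-7i-5p, so these rested on those libraries. ssa-miR-128-3p then stood at 0.51 and ssa-miR-155-5p, which is induced in activated macrophages of mammals, at 0.70. Higher values than that of ssa-miR-155-5p were then held by ssa-miR-462b-5p (0.81) and ssa-miR-150-5p (0.75), among others. Without AKC replicate 1 alone, ssa-miR-155-5p stood at 0.56 and ranked 7 for ssa-miR-21a-5p. The miRNAs most like ssa-miR-21b-5p, after ssa-miR-21a-5p, were ssa-miR-150-5p (0.77), ssa-miR-462b-5p (0.76), ssa-miR-30b-5p (0.75) and ssa-miR-23b-3p (0.69). Without AIC replicate 2 and AKC replicate 1 these were 0.87, 0.69, 0.54 and 0.67, and ssa-miR-21a-5p stood at 0.76. Without AKC replicate 1 alone, ssa-miR-150-5p (0.89) ranked 1 and ssa-miR-21a-5p (0.79) ranked 2 for ssa-miR-21b-5p. ssa-miR-150-5p, a lymphocyte miRNA in mammals, followed ssa-miR-21b-5p with r = 0.92 within AIC and r = 0.66 within AKC. The median r over the 75 miRNAs compared was 0.25 for ssa-miR-21a-5p and 0.13 for ssa-miR-21b-5p. The direction between the groups was another matter, since among these neighbours ssa-miR-155-5p and ssa-miR-462b-5p were called lower in AIC (-3.43 and -1.40) and ssa-miR-23b-3p was called higher (1.39). The call of ssa-miR-23b-3p was lost with total counts (0.48), with the mapped reads (0.037) and without AIC replicate 6 (1.17).

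**Figure D4:**
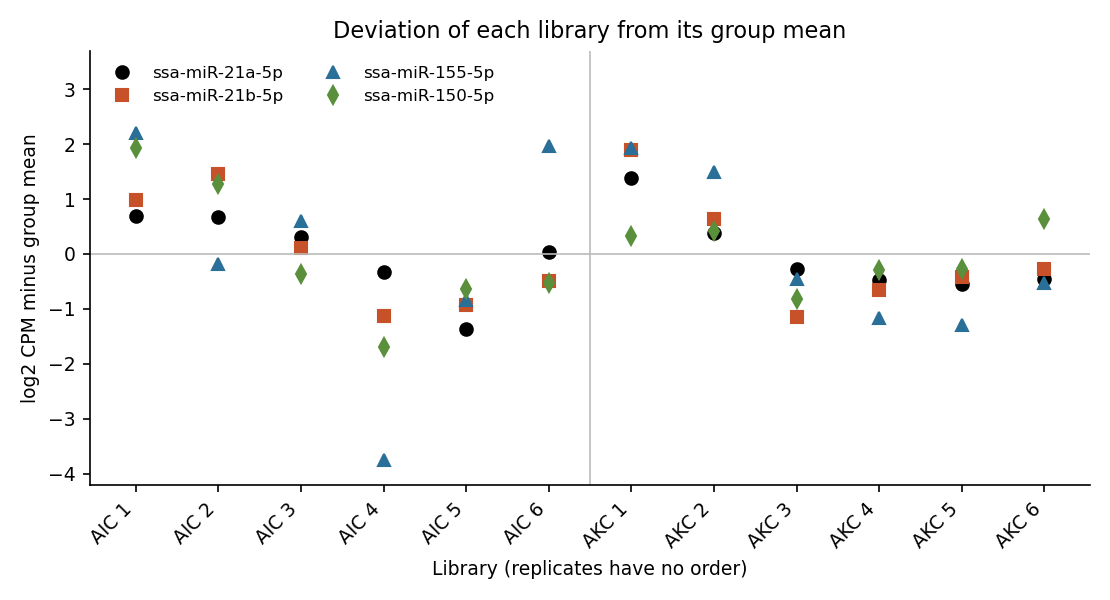
log2 CPM of ssa-miR-21a-5p, ssa-miR-21b-5p, ssa-miR-155-5p and ssa-miR-150-5p in each library minus the mean of its group (vertical axis), for the 6 AIC and 6 AKC libraries (horizontal axis, whose order within a group carries no meaning). Both miR-21 members sit above 0 in AIC replicates 1 to 3 and in AKC replicates 1 and 2, and ssa-miR-150-5p lies close to ssa-miR-21b-5p in AIC (r = 0.92).

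Because ssa-miR-150-5p held most of the counts of the leukocyte list, the miR-21 rows were also set against it, a comparison chosen after the data were seen. ssa-miR-150-5p itself had 11239 ± 10759 CPM in AIC and 15179 ± 5425 CPM in AKC (SD, n = 6 each). Its log2 fold change of -0.43 was not past the threshold (adjusted p = 0.623, edgeR, against a range of 0.0169 to 0.843 over its alternatives), and it was called lower with total counts (-1.46) and with the mapped reads (-1.73). For each count of ssa-miR-150-5p there were 1.26, 2.77, 3.35, 3.60, 2.01 and 2.48 counts of ssa-miR-21b-5p in AIC replicates 1 to 6. In AKC replicates 1 to 6 there were 8.52, 3.38, 2.31, 2.24, 2.61 and 1.54. The groups overlapped widely, and AKC replicate 1 stood above all other libraries. The log2 ratio of the miR-21 sum to ssa-miR-150-5p was 1.35 ± 0.57 in AIC and 1.69 ± 0.82 in AKC (SD, n = 6 each). The difference of -0.34 lay within the scatter of the libraries (95% interval from the inverted permutation test -1.25 to 0.52, two-sided exact p = 0.463, and 0.463 after adjustment over 6 tests). Without AKC replicate 1 the difference was -0.040. The interval reaches beyond a 2-fold difference, so equal ratios were not shown. The miR-21 sum was mostly ssa-miR-21b-5p, since ssa-miR-21a-5p made up only 2.44% to 16.5% of the 5p counts of the pair. The test of the sum therefore says little about ssa-miR-21a-5p. For ssa-miR-21a-5p the ratio ran from 0.0444 to 0.273 in AIC and from 0.147 to 0.648 in AKC, which was not tested.

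miR-21 was placed beside other miRNAs of macrophage activation in mammals. Of the 51 rows of this list, 27 had a count and 9 were tested, of which 1 was called higher in AIC, 2 were called lower and 6 were not called, against 26.3% called over all miRNAs tested. The median log2 fold change of the 9 was -0.81, against 0.090 over all 76. The called members were ssa-miR-125a-5p (2.61, standard error 0.32), ssa-miR-155-5p (-3.43, standard error 0.90) and ssa-miR-181c-5p (-1.61, standard error 0.35), the last named after its value was seen. ssa-miR-181a-5p, the most abundant of the list, had a log2 fold change of -0.81 that was not past the threshold (adjusted p = 0.0697, edgeR, against a range of 0.000461 to 0.289 over its alternatives). It was called lower with DESeq2 size factors (-1.04), total counts (-1.63), the mapped reads (-1.97), DESeq2 (-1.04) and without AIC replicate 4 (-1.07). Of the list of miRNAs that, like miR-21, are induced by STAT3, NF-κB or AP-1 in mammals, 4 of 10 rows were tested. ssa-miR-155-5p was the 1 called, against 26.3% called over all miRNAs tested. The median log2 fold change of the 4 was -0.83, against 0.090 over all 76. ssa-miR-155-5p, which is also on the macrophage list, had 6.67 to 430 CPM in AIC and 531 to 4972 CPM in AKC. ssa-miR-146a-5p, a feedback inhibitor of Toll-like receptor signalling in mammals, had 198 ± 77.4 CPM in AIC and 354 ± 406 CPM in AKC (SD, n = 6 each), with a log2 fold change of -0.84 (adjusted p = 0.491, edgeR) that was called only with the mapped reads (-2.24) among the 20 alternatives. Its highest value, 1121 CPM, was again that of AKC replicate 1, and without this library the log2 fold change was -0.057.

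**Figure D5:**
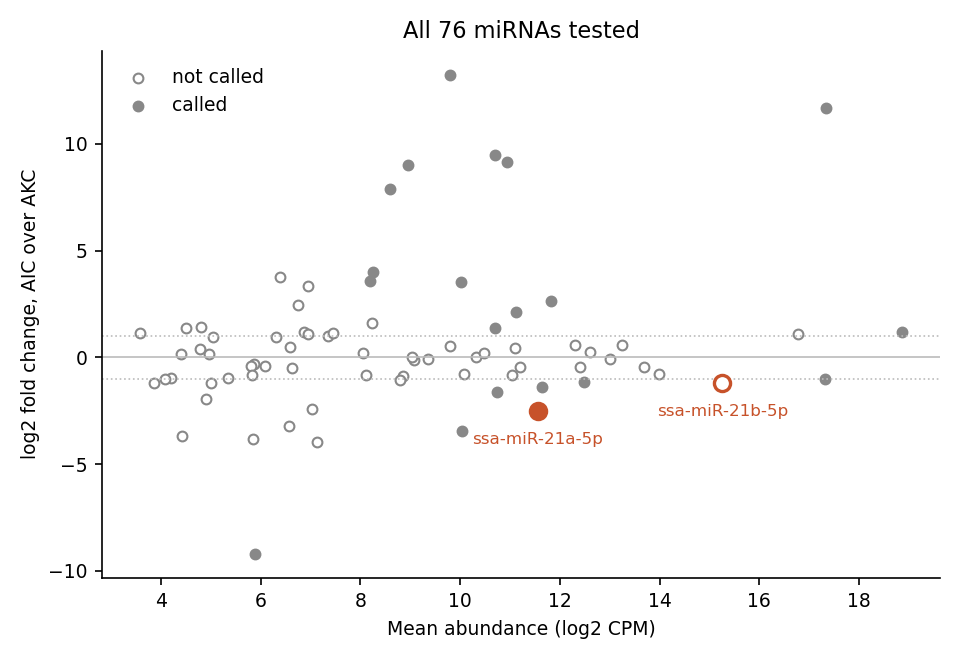
log2 fold change (AIC over AKC) against mean abundance (log2 CPM) for the 76 miRNAs tested, 1 point each, with called miRNAs filled, the miR-21 members in orange and dotted lines at log2 fold changes of -1 and 1. ssa-miR-21a-5p (-2.50) is filled and ssa-miR-21b-5p (-1.21), the more abundant of the pair, is open just below the dotted line.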

How the data were processed

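Small RNA of 6 AIC and 6 AKC samples was made into libraries with a NEXTflex kit. The authors trimmed adapters with Cutadapt (version 1.12 in the submitters' processing notes), filtered by quality (FASTX-Toolkit), and used miRDeep2 to map to the ICSASG_v2 genome (mapper.pl) and to count against salmon entries of miRBase (quantifier.pl), whose release is not given in the sources used here. The deposited values are estimated counts for each mature miRNA without normalization. Fractions occurred in 12 of the 361 rows, 0 of them miR-21 rows. PCR copies cannot be told apart in these counts. The counts of AKC replicate 1 summed to 19586480, above its 15934581 mapped reads. The sum also exceeded the mapped reads in AIC replicates 2 and 4 and in AKC replicates 2, 4, 5 and 6. Those of AIC replicate 5 summed to 2639190, below its 4545988 mapped reads. ssa-miR-194b-3p and ssa-miR-194c-3p had identical counts in every library (183, 398 and 74 in AIC replicates 2, 4 and 6, and 0 elsewhere). Whether reads were counted on more than 1 of the miR-21 rows, and the part of such counting in the shares and ratios, was not tested.

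Counts were rounded and tested with edgeR 4.0.16 in R 4.3.3 (filterByExpr with a minimum count of 10, TMM, quasi-likelihood test), AIC against AKC without covariates, after the script had been tested on simulated data. Shares and log2 ratios (pseudocount 0.5) were compared with exact permutation tests over all 924 splits in SciPy 1.17.1. Alternatives were other library sizes, filters, DESeq2 1.42.0, the replicate number as a block and leaving out each library. The mapped reads came from the supplement of the paper. Named were all members, the 2 most abundant tested miRNAs of each list, and the 5 tested miRNAs most like each tested member by Pearson r of log2 CPM (prior count 2) minus group means. Members, lists and tests were chosen with earlier results of these data known. The planned ratios to miR-142 and of the 3p to the 5p arm were not run. Most libraries had no count of the listed miR-142 rows or of a 3p arm of miR-21. No sequences are shown, and the mRNA libraries were not analysed here.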

Additional observations from a re-analysis of the deposited data

Results flagged for a closer look

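In 16 groups of 6 values (each miR-21 measure and the total count, in AIC and in AKC), the highest and the lowest library were compared with the range of their group, and 6 values stood far from the rest. For normally distributed values chance gives about 1 in 20 such groups. The shares and CPM were compared on a linear scale and are skewed, so this rate need not hold for them. Most of the 6 values are the same library measured in several ways. In AKC replicate 1 the share of ssa-miR-21b-5p was 22.4%, against 8.41% in the next library, that of ssa-miR-21a-5p was 1.70%, against 0.761%, and that of all miR-21 rows was 24.1%, against 9.17%. The normalized counts of the same library were 153569 CPM for ssa-miR-21b-5p, against 64923 in the next, and 11679 CPM for ssa-miR-21a-5p, against 5877. The log2 ratio of the pair in AKC replicate 1 (-3.72) was not set apart in this way. It is on a log scale, unlike the shares and CPM, so the outcomes are not directly comparable. The sixth value was the share of ssa-miR-21b-3p in AKC replicate 3, at 0.00299%, against 0.000725% in AKC replicate 1 and 0 in the other AKC libraries.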

How the results depend on the processing

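ssa-miR-21a-5p kept its call, and the shares of both 5p members, the share of all miR-21 rows, the ratio to ssa-miR-150-5p and the log2 ratio of the pair kept their direction and side of the threshold, under every alternative run. The log2 fold change of ssa-miR-21b-5p (-1.21) was called with total counts (-2.19), the mapped reads (-2.49), no filter (-1.28), DESeq2 (-1.27) and the replicate block (-1.14), and ran from -1.53 to -1.03 when each library was left out. The number of miRNAs called was 20 (13 higher and 7 lower in AIC), against 33 with the mapped reads (9 higher, 24 lower), 41 without a filter (32 higher, 9 lower), 33 with DESeq2 (17 higher, 16 lower), and 29 with total counts (9 higher, 20 lower). The replicate numbers were not taken as pairs, since no pairing by fish is stated in the sources used here. Over all 76 miRNAs tested together, 0 of 6 same-numbered pairs had deviations from the group means correlated above 0.1 (mean -0.00143). This does not show whether single miRNAs vary in pairs. For ssa-miR-21b-5p the standard error was 0.31 with the block and 0.56 without it. The block called 22 miRNAs. In the sign-flip test of same-numbered libraries the ratio of the pair gave p = 0.0312 (exact, two-sided), the smallest that 6 pairs allow. Of the 15 other miRNAs named, 3 changed sign, none of them called with TMM: ssa-let-7i-5p (0.061 with the block, -0.29 to 0.10 when a library was left out), ssa-miR-128-3p (-0.69 with total counts, -1.08 with the mapped reads, -0.17 to 0.26 when a library was left out) and ssa-miR-30b-5p (-0.39 and -0.75 with the same library sizes). Of the other values of these 15 miRNAs, 274 kept direction and side of the threshold, 13 passed it and 3 no longer did. The ratios to miR-142 and of the 3p to the 5p arm were not run, for want of counts. The 3p arms had no count in most libraries. ssa-miR-21b-3p was counted in AKC replicate 1, the largest library, and in AKC replicate 3 (10062445 counts in total). It had 0 counts in all others, among them the larger AKC replicates 2 (13211794) and 6 (12685885). The part of depth in this was not tested.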

Other observations

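AKC replicate 1 was the highest AKC library, in normalized counts, for 25 of the 76 miRNAs tested. Its log2 CPM lay above the median of the other AKC libraries by 0.54 in the median miRNA, by 1.84 for ssa-miR-21a-5p and by 2.31 for ssa-miR-21b-5p. These excesses ranked 16 and 14 among the 76. ssa-miR-146a-5p (2.83) and ssa-miR-155-5p (2.46), both on the macrophage list, ranked 11 and 12. From that list ssa-miR-181c-5p was also highest in AKC replicate 1 (3309 CPM, against at most 2828 CPM in other AKC libraries). Its remaining tested members were not. Among them were ssa-miR-181a-5p (16336 CPM, against 14069 to 29345 CPM) and ssa-miR-125b-5p (1211 CPM, against 1174 to 1459 CPM). Between ssa-miR-155-5p and the miR-21 members came ssa-miR-100a-5p, which is not on the macrophage list used here. It had 2189 CPM in AKC replicate 1 and at most 1207 CPM in the other AKC libraries. The ranks above 11 were held by miRNAs at or below 137 CPM in AKC replicate 1. AKC replicate 1 also had the largest total count and the most miRNAs with a count of the 6 AKC libraries, and the part of depth in these values was not tested.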
